A study of Mus musculus with 13 samples.

Results

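Gpx1, Gpx4, Txnrd1, Txnrd2, Txnrd3 and Msrb1 encode selenocysteine-containing redox enzymes of the glutathione, thioredoxin and methionine sulfoxide systems, and they make up 6 of the 43629 genes counted. They were chosen by function and by earlier pull-down values from these libraries: Txnrd3 ranked 28 of 14076 genes by its log2 fold change of IMP1 over IgG, and Msrb1 ranked 18 for IMP2 over IgG. The pull-down values of the 6 genes are therefore given as a description, and calls are counted only to set them beside all genes. The cells were mouse embryonic fibroblasts (MEFs), connective tissue cells grown from embryos, with "E12.5" written in the strain field of the labels, and all were kept in DMEM with 10% FBS. RNA was recovered by immunoprecipitation (IP) with IMP1, IMP2 or control IgG, 3 libraries each, to find the RNA clients of this pair of mRNA-binding proteins (genes Igf2bp1 and Igf2bp2). Total RNA came from 1 library each of wild-type (WT) and knockout (KO) cells of an IMP1 line and an IMP2 line. No genotype is labelled for the IP cells, and the 3 libraries of an antibody are not said to be separate cultures, so test results measure only the spread between these libraries, which may be technical.

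Selenoproteins carry selenocysteine, an amino acid read from a UGA codon that otherwise stops translation, and the mRNA needs a SECIS hairpin beyond the coding sequence for that reading. Gpx1 reduces hydrogen peroxide in the cytosol with glutathione, and Gpx4 reduces lipid hydroperoxides in membranes and so protects cells from ferroptosis, an iron-dependent cell death. Txnrd1 (cytosol), Txnrd2 (mitochondria) and Txnrd3 (which also carries a glutaredoxin domain and is best known from testis) use NADPH to keep thioredoxin reduced, and Msrb1 repairs oxidised methionine.

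Each IgG library held 11840189 to 14548720 gene counts, each IMP1 pull-down 17704900 to 18938144, each IMP2 pull-down 15718705 to 21756430 and each total RNA library 11430002 to 17225308. Reads outside genes were 24.16 to 25.15% of the total in IgG IP and 4.43 to 7.66% in all other libraries. All 10 fibroblast markers were above 1 CPM in every group, and the red cell globins Hbb-bs, Hba-a1 and Hba-a2 were at 0 throughout. Reads without a unique alignment, 17.23 to 40.88% of the total, are not in the gene counts. A count of 0 can therefore miss RNA of near-identical genes. With the heme synthesis gene Alas2 added, the 4 red cell markers summed to 3.78 to 4.31 CPM in IgG IP and to at most 0.565 CPM in any other library. Macrophage markers summed to 261 CPM in the IMP2 KO library, against 28.6 in IMP2 WT, 22.3 in IMP1 WT and 11.5 in IMP1 KO. The targeted genes followed the labels, with Igf2bp1 lower in IMP1 KO (3.32 CPM) than in its WT (32.3) and Igf2bp2 lower in IMP2 KO (27.8 CPM) than in its WT (146). Levels are CPM, read counts scaled to a fixed total of gene counts per library. For 1 gene they give its share of each library, with no adjustment for RNA composition. TMM scaling, which makes that adjustment, had factors of 0.992 to 1.001 for IgG and 0.8941 to 0.8961 for the IMP1 pull-downs. For the IMP2 pull-downs the factors were 1.12 to 1.128. Whether CPM ranges of different groups overlap can therefore depend in part on composition. CPM are not comparable between genes, because they are not divided by transcript length.

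Promoter sequence is shown for Txnrd1 and Msrb1, the members more than 2-fold lower in IMP2 KO total RNA, as the 250 bases before an annotated start (RefSeq, GRCm38.p6, + strand, 5′ to 3′). All 6 genes matched the RefSeq table, with 11 such windows. Each window was searched on both strands for TGACNNNGC, the core of the antioxidant response element bound by Nrf2, and for the GC box GGGCGG, and the letters of these motifs do not overlap in the windows printed. Capitals mark the antioxidant core in Txnrd1, read on the opposite strand, and the GC boxes in Msrb1. A GC box of the Txnrd1 window, 196 bases before the start, is left in lower case.
Txnrd1, chr10:82858956-82859205: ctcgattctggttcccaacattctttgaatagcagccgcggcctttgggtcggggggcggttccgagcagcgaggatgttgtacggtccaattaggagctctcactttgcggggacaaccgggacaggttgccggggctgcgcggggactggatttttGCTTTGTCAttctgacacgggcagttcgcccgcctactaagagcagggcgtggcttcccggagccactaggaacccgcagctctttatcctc
Msrb1, chr17:24736343-24736592: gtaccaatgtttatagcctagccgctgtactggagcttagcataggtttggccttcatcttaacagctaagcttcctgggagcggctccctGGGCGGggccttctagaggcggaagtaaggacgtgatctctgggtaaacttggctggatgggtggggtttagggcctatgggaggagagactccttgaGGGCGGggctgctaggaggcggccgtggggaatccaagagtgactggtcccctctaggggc
The Txnrd1 window lies before the second of 3 annotated starts and is the only member window with the antioxidant core, which lies 92 bases before the start. Across 32851 windows of this length, 10.2% held that core. A GC box was present before Msrb1 (159 and 61 bases before the start), Txnrd2, the same Txnrd1 window and 3 of 4 Gpx4 windows, and in 32.7% of all windows. Gpx4 windows 2 and 3 overlap and hold the same boxes. No GC box was found before Gpx1 or Txnrd3. A match is a description of letters, not a binding site.

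**Figure D1:**
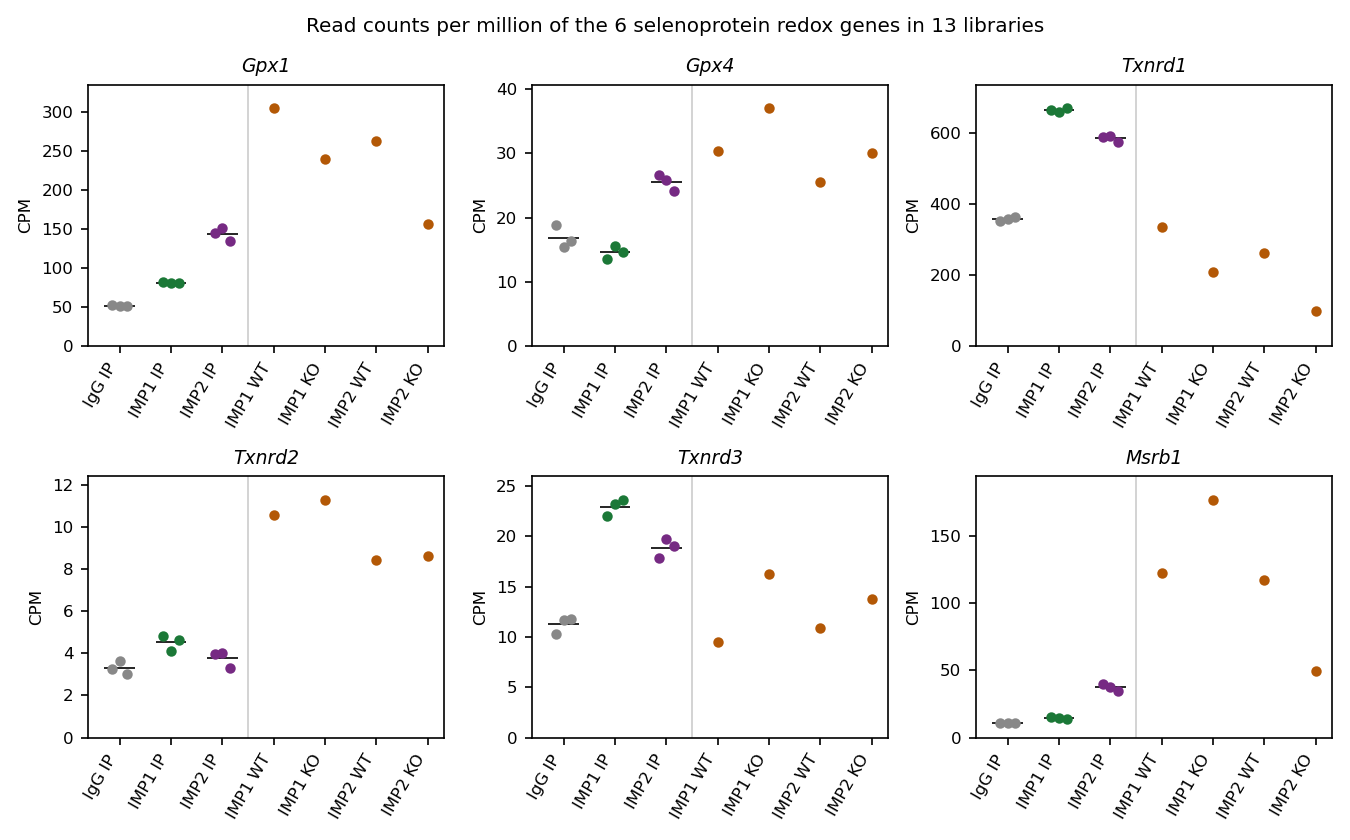
CPM (y axis, linear, from 0) of the 6 genes in all 13 libraries by group (x axis). Points are libraries and bars the mean of 3 IP libraries. Txnrd1 lay between 656.8 and 668.1 in IMP1 IP and Msrb1 between 34.61 and 39.7 in IMP2 IP, in each case above every IgG library.

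Gpx1 (ENSMUSG00000063856, chr9:108339080-108340342) had a larger share of gene counts with either protein than with IgG, and the largest with IMP2. Its level was 52.49, 51.86 and 50.73 CPM in the IgG libraries, 82.64, 80.26 and 80.85 in IMP1 IP, and 145.2, 151.5 and 134.5 in IMP2 IP. The 3 groups did not overlap. In the fit scaled by TMM, which adjusts for RNA composition, the log2 fold change over IgG was 0.80 ± 0.0494 (SE, 3 libraries a group) with IMP1 and 1.3 ± 0.0476 with IMP2, rank 341 and rank 75 of 14076 genes.

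Gpx4 (ENSMUSG00000075706, chr10:80047166-80056439) stood apart from Gpx1 in its IMP1 values. It was counted at 18.77, 15.46 and 16.36 CPM in IgG, 13.62, 15.65 and 14.62 in IMP1 IP, and 26.59, 25.88 and 24.18 in IMP2 IP. The IMP1 libraries overlapped IgG, and all IMP2 libraries lay above both. The log2 fold change over IgG was -0.06 ± 0.0879 (SE) with IMP1 and 0.42 ± 0.0816 with IMP2. The pseudogenes Gpx4-ps1 and Gpx4-ps2 can share its reads, so its counts are uncertain.

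Txnrd1 (ENSMUSG00000020250, chr10:82833951-82897724), the cytosolic reductase, was higher in both specific pull-downs than in IgG, and highest with IMP1. It was at 352.2, 356.1 and 362.3 CPM in IgG, 663.4, 656.8 and 668.1 in IMP1 IP, and 586.2, 591.1 and 573.3 in IMP2 IP. The groups did not overlap, and the IMP1 spread was 0.854% of its mean. Its log2 fold change was 1.04 ± 0.0309 (SE) with IMP1, rank 67, and 0.53 ± 0.0308 with IMP2, rank 3105. Gm38560 and Eid3 lie in the same span, and whether counting separated strands is not stated in the labels.

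Txnrd2 (ENSMUSG00000075704, chr16:18426417-18479073), the mitochondrial reductase, was the least sampled member, with 43 to 91 reads in each IP library. Its levels were 3.236, 3.632 and 3.024 CPM in IgG, 4.805, 4.123 and 4.652 in IMP1 IP, and 3.944, 4.016 and 3.309 in IMP2 IP. IMP1 libraries all lay above IgG, whereas IMP2 libraries overlapped IgG. The log2 fold change was 0.62 ± 0.149 (SE) with IMP1 and 0.01 ± 0.154 with IMP2.

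Txnrd3 (ENSMUSG00000000811, chr6:89643988-89675529) had the largest IMP1 value of the 6 genes. Its levels were 10.35, 11.74 and 11.75 CPM in IgG, 22.02, 23.21 and 23.65 in IMP1 IP, and 17.81, 19.78 and 19.03 in IMP2 IP, with no overlap between groups. The log2 fold change was 1.18 ± 0.0829 (SE) with IMP1 and 0.57 ± 0.085 with IMP2.

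Msrb1 (ENSMUSG00000075705, chr17:24736593-24742778) had the largest IMP2 value. It was counted at 11.14, 10.64 and 10.86 CPM in IgG, 15, 14.8 and 13.9 in IMP1 IP, and 39.7, 37.53 and 34.61 in IMP2 IP. All IMP2 libraries were above all IMP1 libraries, which were above all IgG libraries. The log2 fold change was 0.57 ± 0.0883 (SE) with IMP1 and 1.60 ± 0.0786 with IMP2.

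**Figure D2:**
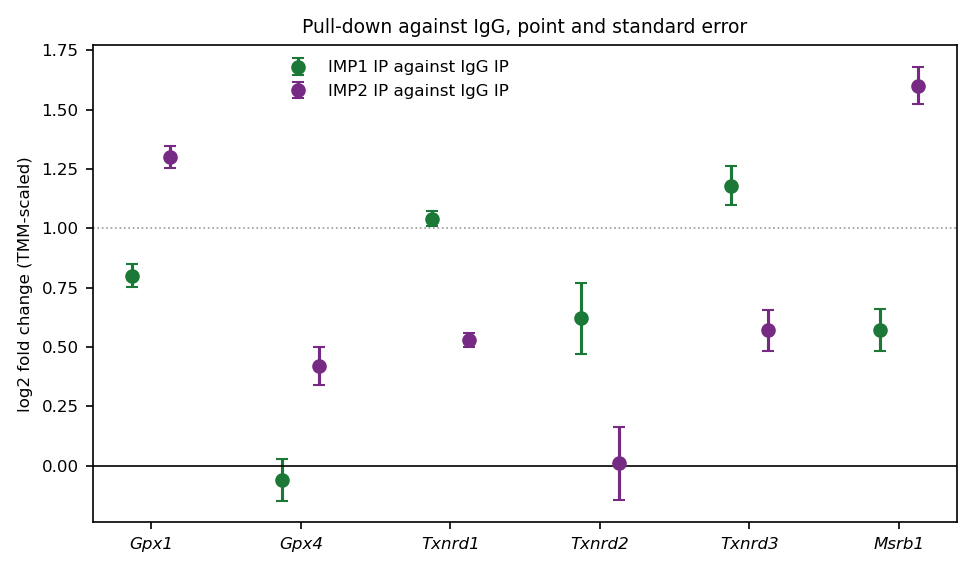
Log2 fold change over IgG (y axis, TMM-scaled) of each gene in IMP1 IP (green) and IMP2 IP (purple). Points are fitted values, bars 1 standard error and the dotted line marks 2-fold. The 3 thioredoxin reductases had the higher value with IMP1, and Gpx1, Gpx4 and Msrb1 with IMP2.

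Both comparisons use the same IgG libraries. At the threshold applied to all genes, a Benjamini-Hochberg adjusted p under 0.05 in edgeR, 5 of the 6 genes were higher than IgG with IMP1, where 31.7% of all tested genes were, and 5 with IMP2, where 40.3% were. The exceptions were Gpx4 with IMP1 and Txnrd2 with IMP2, and none was lower (31.9% and 37.3% of all genes were). CPM ranges lay wholly above IgG for 5 genes with IMP1 (24.2% of all genes) and 5 with IMP2 (49.9%). Because these contrasts chose the genes, nothing is read from the counts. The median log2 fold change of the 6 genes was 0.71 with IMP1 and 0.55 with IMP2, against -0.03 and 0.04 over all genes.

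The pull-downs were also set directly against each other. IMP2 over IMP1 was 0.49 ± 0.0436 (log2, SE) for Gpx1, 0.48 ± 0.0793 for Gpx4 and 1.02 ± 0.0707 for Msrb1. For the thioredoxin reductases it was -0.51 ± 0.0301 for Txnrd1, -0.61 ± 0.134 for Txnrd2 and -0.61 ± 0.0722 for Txnrd3. Of the 6 genes, 3 were past the threshold on the IMP2 side (37.3% of all genes) and 3 on the IMP1 side (34.1%). With total count scaling, which puts the median of all genes 0.324 higher, every direction was kept, but Txnrd1 came to -0.18, Txnrd3 to -0.28 and Txnrd2 to -0.28, where Txnrd2 no longer passed. This contrast uses the libraries that chose the genes, and nothing is read from its counts.

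Against WT total RNA the genes spread widely, and the IgG control shared much of that spread. Relative to the mean of the 2 WT libraries, Msrb1 was at -3.32 (log2 CPM, TMM) with IgG, -2.71 with IMP1 and -1.62 with IMP2. Gpx1 was at -2.33, -1.48 and -0.92 in the same order. Both were below their total RNA level in every kind of pull-down, although both were above IgG with either protein.

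Txnrd1 and Txnrd3 lay above total RNA in both specific pull-downs. Txnrd1 was at 0.39 with IgG, 1.48 with IMP1 and 1.04 with IMP2. Txnrd3 was at 0.26, 1.49 and 0.94. Txnrd2 was at -1.37, -0.73 and -1.24, and Gpx4 at -0.60, -0.60 and -0.06, where the median of all genes was -0.19, -0.07 and 0.18. At least 2-fold above total RNA were 0 members in IgG IP (24.8% of 10438 genes), 2 in IMP1 IP (28.5%) and 1 in IMP2 IP (25.9%). At least 2-fold below were 3 (31.8%), 2 (31.3%) and 2 (20.7%). With total count scaling Txnrd1 in IMP2 IP came to 0.98, which leaves 0 members 2-fold above, and Txnrd2 in IMP1 IP to -1.04, past 2-fold below. No test was made, since the WT libraries are labelled for separate lines.

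**Figure D3:**
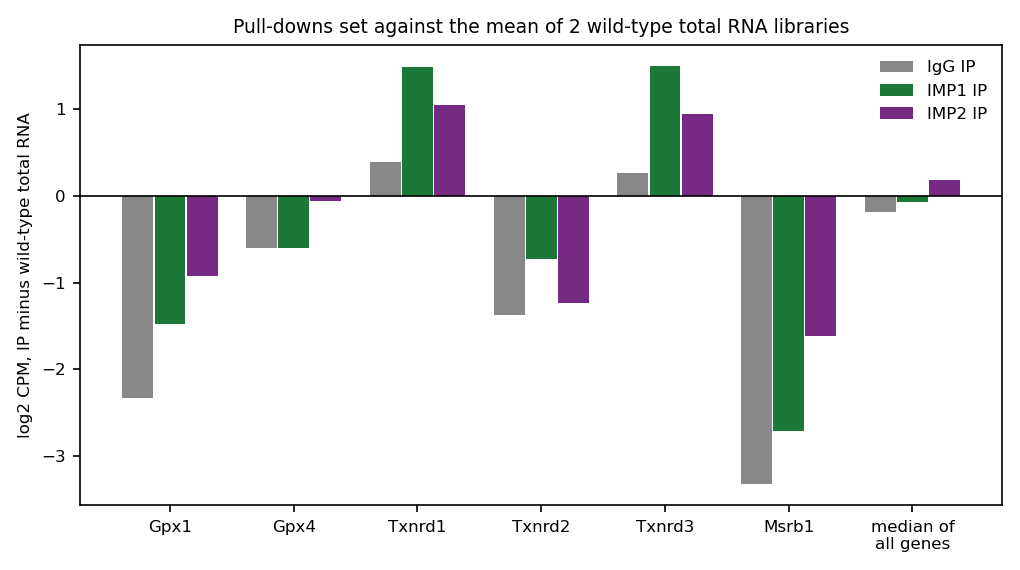
Mean log2 CPM of each IP group minus the mean of the 2 WT total RNA libraries (y axis, TMM-scaled) for the 6 genes and the median of all genes (x axis). Bars start at 0. Msrb1 was lowest in IgG IP at -3.32, and Txnrd3 highest in IMP1 IP at 1.49.

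In the knockouts, 1 library a genotype, no test was possible, and intervals are exact 95% counting intervals that leave out variation between cultures. In these bulk samples fewer cells of a type and less RNA per cell cannot be told apart. Gpx1 was at 304.5 CPM in IMP1 WT and 239.5 in IMP1 KO, a KO over WT ratio of 0.786 (0.75 to 0.825). It was at 263.0 in IMP2 WT and 156.3 in IMP2 KO, a ratio of 0.594 (0.566 to 0.624). Both KO libraries were below both WT libraries. Gpx4 was at 30.29 and 37.01 CPM in IMP1 WT and KO (1.22, 1.07 to 1.4), and at 25.49 and 30.04 in IMP2 WT and KO (1.18, 1.03 to 1.34).

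Txnrd1 was the member furthest below WT. It was at 335.8 CPM in IMP1 WT and 208.3 in IMP1 KO, a ratio of 0.62 (0.59 to 0.651). It was at 261.5 in IMP2 WT and 97.25 in IMP2 KO, a ratio of 0.372 (0.351 to 0.394), while the ratio between the WT lines was 0.779 (0.748 to 0.811). The other thioredoxin reductases were not below WT in either line. Txnrd2 ratios were 1.07 (0.839 to 1.36) in IMP1 KO and 1.02 (0.808 to 1.3) in IMP2 KO, and Txnrd3 ratios 1.72 (1.37 to 2.15) and 1.26 (1.03 to 1.54). Txnrd2 was at 10.57 and 11.29 CPM in WT and KO of the IMP1 line and at 8.418 and 8.627 in those of the IMP2 line, and Txnrd3 at 9.487 and 16.27, then 10.91 and 13.76.

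Msrb1 differed in opposite directions. It was at 122.2 CPM in IMP1 WT and 176.6 in IMP1 KO, a ratio of 1.45 (1.36 to 1.54). It was at 117.2 in IMP2 WT and 49.17 in IMP2 KO, a ratio of 0.419 (0.386 to 0.455). The WT lines were close, with a ratio of 0.959 (0.9 to 1.02). At least 2-fold lower were 0 of the 6 genes in IMP1 KO (7.14% of 10324 genes) and 2 in IMP2 KO, Txnrd1 and Msrb1 (7.79%), and none was 2-fold higher (5.69 and 7.62%). All 5 macrophage markers were above 1 CPM in IMP2 KO, against 4 in each WT and 2 in IMP1 KO, where Ptprc and Adgre1 were at 0. The 4 muscle markers summed to 23.0 and 20.4 CPM in the IMP1 and IMP2 WT libraries and to 1.84 and 0.543 in their knockouts, and the 4 neural markers to 35.5 and 41.7, then 49.4 and 10.1. The part of these cells in the member ratios was not tested.

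**Figure D4:**
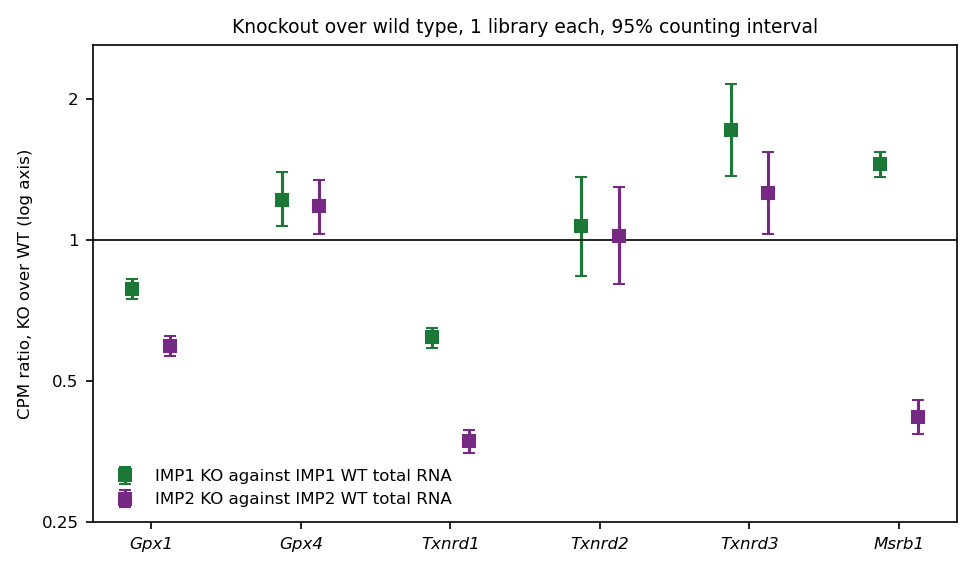
Ratio of CPM, KO over WT (y axis, log scale), for each gene in the IMP1 line (green) and IMP2 line (purple), 1 library each. Bars are 95% counting intervals. Txnrd1 and Msrb1 in IMP2 KO, at 0.372 and 0.419, lie below the 2-fold level of 0.5.

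Over all 13 libraries the level of Gpx1 followed that of Msrb1 (Pearson r of log2 CPM 0.96), and Gpx4 followed Msrb1 (0.89), while Txnrd1 went with Txnrd3 (0.69) and against Gpx4 (-0.57). Txnrd2 went with Msrb1 (0.79) and Gpx1 (0.77) and against Txnrd1 (-0.53) and Txnrd3 (-0.20). These values describe libraries that share groups, IP against total RNA above all. Among 8889 genes the closest to Gpx1 were Lrp10 (0.991), Psma1 (0.988) and Psmd6 (0.987), and to Gpx4 Irak1bp1 (0.967), Ciao2a (0.966) and Dph3 (0.963). Closest to Txnrd1 were Cast (0.991), Aacs (0.991) and Src (0.99), and to Txnrd2 Atpif1 (0.983), Clk3 (0.975) and Mir6236 (0.968). Trim23 (0.972), Arl6ip6 (0.954) and Sgpl1 (0.953) were closest to Txnrd3, and Parva (0.993) and Dda1 (0.99) were among the closest to Msrb1.

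Most of the other selenoproteins that passed the count filter of the pull-downs were above IgG in both (edgeR, adjusted p under 0.05). For all lists, the shares to read against are those of all 14076 genes, of which 31.7% were higher and 31.9% lower with IMP1, and 40.3% higher and 37.3% lower with IMP2. Of 18 listed genes 12 were tested, and Gpx2, Gpx3, Dio1, Dio2, Dio3 and Selenov did not pass the filter. Gpx3 was at 106 CPM in IMP1 WT and 124 in IMP2 WT total RNA. Of the 12 tested, 10 rose with IMP1 and 11 with IMP2, and 0 fell, with median log2 fold changes of 0.48 and 0.84. With IMP1 the largest values were 1.57 ± 0.112 (SE) for Selenop, the plasma selenium carrier, and 1.2 ± 0.0792 for Selenos, a membrane protein of the endoplasmic reticulum. Genes named from a list were picked by these values, so no p is given for them. Selenow at 1.41 and Selenof at 1.2 led with IMP2. Of 11 genes listed as selenocysteine machinery, 7 rose and 2 fell with IMP1 (median 0.32). With IMP2, 6 rose and 3 fell (median 0.33). Sephs2 is in this list and in that of the other selenoproteins. Sepsecs (0.70) and Secisbp2l (0.64) led with IMP1, and the elongation factor Eefsec (1.12) and Sephs2 (1.08) with IMP2.

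The rest of the redox network was counted in the same way, beside the same shares of all genes (31.7% higher and 31.9% lower with IMP1, 40.3% and 37.3% with IMP2). All 11 thioredoxin system genes rose with IMP2 (median 0.96), led by mitochondrial thioredoxin Txn2 (1.38) and peroxiredoxin Prdx2 (1.25), while 3 rose and 4 fell with IMP1. Of 20 glutathione system genes 14 rose and 2 fell with IMP2 (median 0.61), led by Gstp1 (1.28) and Prdx6 (1.18), while 4 rose and 7 fell with IMP1 (median -0.06). The 13 genes of the Nrf2 axis and NADPH supply all rose with IMP2 (median 0.48), and 9 rose and 2 fell with IMP1 (median 0.25). Of 9 tested lipid peroxidation and ferroptosis genes 8 rose with IMP2 (median 0.35), and Slc40a1 did not pass the filter. With IMP1, 3 rose and 2 fell (median 0.10, or -0.05 with total count scaling), led by the transferrin receptor Tfrc (0.89) and Acsl4 (0.88). Among 4 superoxide dismutase and catalase genes 4 rose with IMP2 (median 0.70), and 1 rose and 2 fell with IMP1 (median -0.20). The cysteine counterparts, relatives of the members without selenocysteine, had 4 of 4 tested genes higher with IMP2 (median 1.06), while 2 fell with IMP1 (median -0.26), namely Msra (-0.69) and Msrb3 (-0.46). Gpx5, Gpx6 and Gpx7 of that list did not pass the filter. Gpx7 was at 26.4 CPM in IMP1 WT and 29.6 in IMP2 WT total RNA. With upper quartile scaling 3 selenocysteine machinery genes rose and 3 fell with IMP2, while with IMP1 2 glutathione system genes rose and 9 fell, and 0 superoxide dismutase and catalase genes rose and 3 fell. The difference between lists was not tested.

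**Figure D5:**
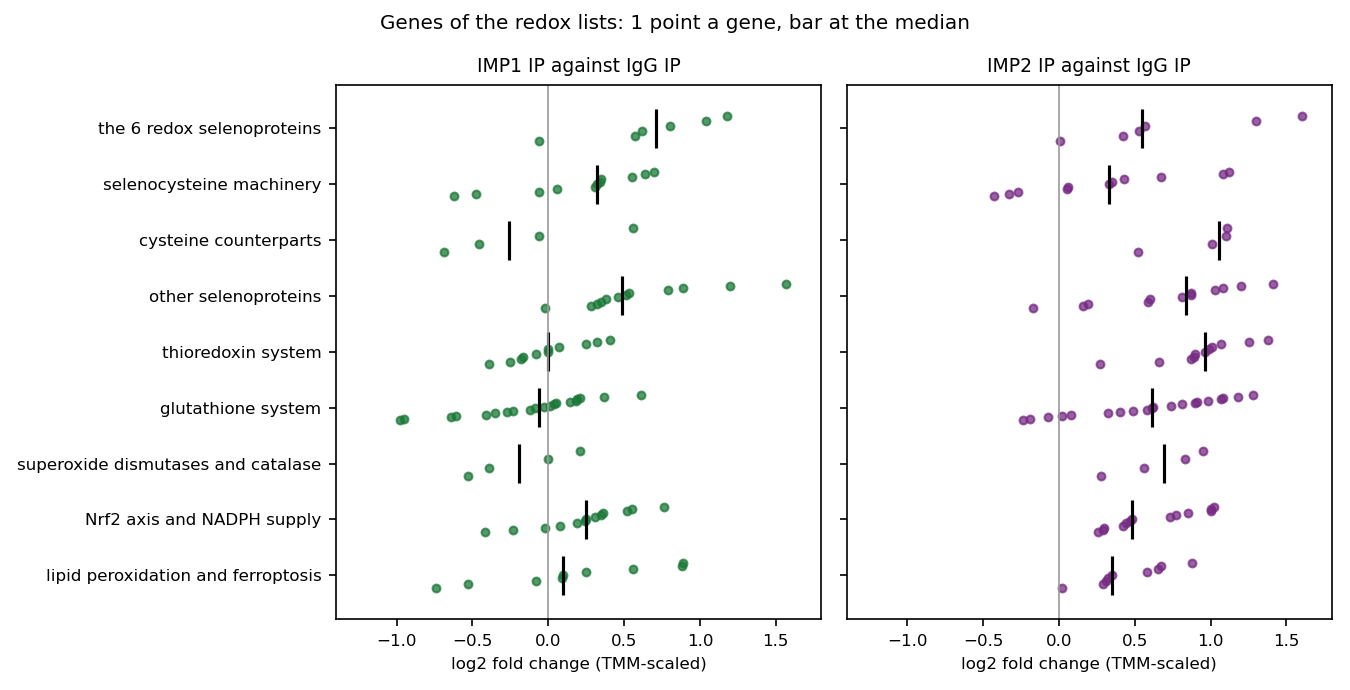
Log2 fold change over IgG (x axis, TMM-scaled) of each tested gene of the 6 redox selenoproteins and 8 lists (y axis), for IMP1 IP (left) and IMP2 IP (right). Points are genes and bars medians. The thioredoxin system had a median of 0.96 with IMP2 and 0.00 with IMP1.

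In the knockouts the selenocysteine machinery had 0 of 11 genes 2-fold higher or lower in either line, where 5.69% of all 10324 genes were 2-fold higher and 7.14% lower in IMP1 KO, and 7.62% and 7.79% in IMP2 KO. Tfrc had ratios of 0.159 (0.135 to 0.188) in IMP1 KO and 0.255 (0.219 to 0.295) in IMP2 KO, and Acsl4, which loads polyunsaturated fatty acids for lipid synthesis, 0.522 (0.456 to 0.596) and 0.349 (0.304 to 0.4). The Nrf2 target genes Hmox1 and Nqo1, the furthest from WT of their list in IMP1 KO, had ratios of 0.277 (0.261 to 0.294) and 0.397 (0.343 to 0.459) there. In IMP2 KO theirs were 0.966 (0.926 to 1.01) and 1.07 (0.932 to 1.22). Their list of 13 had 0 genes 2-fold higher and 3 lower in IMP1 KO (median log2 ratio -0.10), and 1 and 0 in IMP2 KO (-0.05). In IMP1 KO and then IMP2 KO, Nnt was at 0.428 and 0.978 and Nfe2l2 at 0.59 and 1.07. Like Hmox1 and Nqo1, both were well below WT in IMP1 KO and near it in IMP2 KO. Pgd was below WT in both, at 0.5 and 0.502. Other genes of the list went otherwise, with Me1 at 1.33 and 0.617 and Idh2 at 1.96 and 2.07. Selenop was above WT in both lines, at 3.05 (2.66 to 3.51) and 5.13 (4.69 to 5.61). Its list, the other selenoproteins, had median log2 ratios of -0.16 and -0.28. In IMP2 KO, Gpx7 was at 4.1 (3.72 to 4.52) times WT. The thioredoxin inhibitor Txnip was at 3.15 (3.03 to 3.27) and Cat at 2.01 (1.9 to 2.12) there. The medians of their lists in IMP2 KO were -0.10 (cysteine counterparts), -0.35 (thioredoxin system) and 0.10 (superoxide dismutases and catalase). For the list of Tfrc and Acsl4 the median was -0.14 in both lines.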

How the data were processed

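The authors deposited raw counts of reads for each Ensembl gene and library, with the Illumina TruSeq kit named per the labels. STAR, HTSeq and mm10 are named in the submitters' processing notes, and versions, annotation and strand setting are not given in the sources used here. The 5 tally lines of each file were left out of totals. Of 43629 gene IDs, 42462 matched a symbol. The 9 IP libraries were fitted together in edgeR 4.0.16 (R 4.3.3) by the quasi-likelihood test, with TMM scaling and the default count filter, and p-values were Benjamini-Hochberg adjusted over 14076 genes. The standard error is the log2 fold change over the square root of F. Knockout ratios are of CPM, with exact 95% conditional binomial intervals, and 2-fold counts use genes with at least 10 CPM in 1 of 4 total libraries and a prior count of 2. A count of 0 allows up to 3 counts, 0.1379 to 0.2625 CPM. Intervals and floors cover counting error only. The members and lists were chosen with earlier results of these data known. Named genes are the members, Igf2bp1 and Igf2bp2, the leading members of each list, and the 3 genes most like each member, of which not every one is reported here. On simulated data for IMP1 against IgG (13948 genes), the fit recovered 44 of 50 genes changed 1.25-fold and 50 of 50 each at 1.5-fold, 2-fold and 4-fold, with 9 calls among 13748 unchanged genes. The changed genes were few, well counted in IgG and balanced up and down, with the same 3.84% spread for every gene and group. The simulation therefore does not cover low genes such as Txnrd2, or scaling where 8948 genes are called. Alternatives were DESeq2 1.42.0, other scalings, no filter, only the libraries compared, a replicate block and each library left out. Libraries of a group differed beyond sampling noise and none was a copy.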

Additional observations from a re-analysis of the deposited data

Results flagged for a closer look

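Several genes stood on opposite sides of the control in the IMP1 and IMP2 comparisons. Msrb1 was at 1.45 times WT in IMP1 KO and 0.419 times WT in IMP2 KO. Dio3, a deiodinase, was at 0.091 times WT in IMP1 KO and 38.1 times in IMP2 KO, Oplah, a glutathione cycle enzyme, at 0.205 and 4.47, and extracellular superoxide dismutase Sod3 at 0.342 and 1.2. With 1 library a genotype, these differences were not tested.

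In the pull-downs, log2 fold changes over the shared IgG libraries had opposite signs for 21 of the 83 tested genes of the redox lists, each past the threshold in both comparisons and in IMP2 IP against IMP1 IP in edgeR. Of these, 18 were lower with IMP1 and higher with IMP2, and 3 the reverse. Over all 14076 genes, 31.7% were higher and 31.9% lower with IMP1, and 40.3% and 37.3% with IMP2. The share of all genes with opposite calls was not counted, so nothing is read from the counts in the lists. The genes named first lead their list in a comparison with IgG. With IMP1 and then IMP2, Txn2 was at -0.39 and 1.38, Prdx2 at -0.25 and 1.25, and Prdx6 at -0.41 and 1.18. Fth1, the ferritin heavy chain, was at -0.74 and 0.67, Nqo1 at -0.23 and 1.0, Cat at -0.39 and 0.28, and Sod3 at -0.53 and 0.95. Mgst3 was at -0.98 and 0.61, Msra at -0.69 and 1.11, and Msrb3 at -0.46 and 0.52. The reverse order was seen for Secisbp2l, at 0.64 and -0.43. It was also seen for Secisbp2, the SECIS-binding protein (0.32 and -0.33), and the cystine transporter Slc7a11 (0.14 and -0.19). Secisbp2 and Slc7a11 were chosen after their values were seen. In CPM, Slc7a11 was at 190 in IgG, 189 in IMP1 IP and 188 in IMP2 IP. Both pull-downs overlapped IgG for Slc7a11, so its opposite signs rest on TMM scaling. For Secisbp2 the IMP2 libraries (mean 19.0 CPM) overlapped IgG (21.1). Opposite signs were counted with TMM scaling only.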

How the results depend on the processing

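Of 288 alternative pull-down values of the 6 genes, 276 kept direction and side of the threshold. The 9 that changed sign belong to values near 0: Gpx4 with IMP1 came to 0.00 with no filter, 0.03 without IgG library 1 and 0.00 without IMP1 library 1, and Txnrd2 with IMP2 to -0.05 with DESeq2 size factors, -0.05 with the DESeq2 Wald test, -0.17 with upper quartile scaling, -0.03 with the 6 libraries compared alone, -0.04 without IgG library 3 and -0.03 without IMP2 library 2. Gpx4 with IMP1 passed at -0.23 and -0.21 with upper quartile and total count scaling, and Txnrd2 in IMP2 over IMP1 no longer passed at -0.28 with the latter. With 1 library left out, Gpx4 with IMP1 ranged from -0.1 to 0.03 and Txnrd2 with IMP2 from -0.04 to 0.12. The cause was not tested. The numbers of genes past the threshold (8948, 10927 and 10053 for IMP1 over IgG, IMP2 over IgG and IMP2 over IMP1) ranged over 8352 to 9729, 10536 to 11414 and 9580 to 10103 with 1 library left out. Replicate numbers did not pair the IMP libraries with IgG (same-number r from -0.199 to 0.01). Between IMP1 and IMP2 IP, same-number r was 0.352, 0.012 and 0.303, and r of other pairs ran from -0.353 to 0.134. Whether the numbers pair those libraries was not tested. A replicate block gave 9017, 10961 and 10067 genes past the threshold. Total count scaling moved the median of all genes by -0.153, 0.173 and 0.324 and the share of calls that were higher from 49.81, 51.93 and 52.25% to 33.33, 62.24 and 72.18%. Upper quartile scaling moved it by -0.17 (31.6% higher) with IMP1 and -0.179 (39.88%) with IMP2. With no filter it moved by -0.151 and -0.224 in the comparisons with IgG. Against WT total RNA, total count scaling moved it by -0.322 with IMP1, which put Txnrd2 at -1.04, and Txnrd1 with IMP2 came to 0.98, or to 0.87 against IMP1 WT alone. With at least 1 CPM in place of 10, 2701 genes differed 2-fold in IMP1 KO (1324 before) and 2965 in IMP2 KO (1591), since more low genes enter. Low counts limit Txnrd2.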
